A study of Mus musculus with 10 samples.

Results

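The transcripts of 35 genes for integrins and focal adhesion proteins were followed in primary smooth muscle cells of mouse aorta. They were picked by name and not by any measured value, and each name led to 1 of the 54446 Ensembl gene IDs in the count table. The set held 12 integrin alpha chains, 6 integrin beta chains and 17 proteins that join integrins to actin or carry their signals. The cells came from wild type mice (WT, 5 libraries) and from KitW/WV mice (WWv, 5 libraries), which carry the W allele of Kit on one chromosome and the Wv allele on the other. Both alleles are inherited, so all cells of a WWv mouse carry them, not only smooth muscle. Cells of both groups were freed from the aorta with collagenase and grown to passage 2, so the values describe cells attached to a culture surface. The labels speak of 5 mice per genotype and number the libraries 1 to 5, but do not tie a library to a mouse. P-values then measure only the spread between these libraries. The sources used here give no age, sex, litter or culture batch.

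Integrins are receptors made of an alpha and a beta chain that cross the cell membrane and bind matrix proteins such as collagen, laminin and fibronectin outside the cell. Inside, talin and kindlin bind the beta tail and switch the receptor on, the ILK, PINCH and parvin complex and vinculin tie it to actin, and the kinase FAK with paxillin and p130Cas passes signals on. In vascular smooth muscle this linkage carries contractile force to the vessel wall, and integrins that bind the RGD motif (arginine, glycine, aspartate) can also activate latent TGF-beta.

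Library totals ranged from 42040255 to 53863661 counts. Levels are given as CPM, the count relative to the library's total after scaling with edgeR's TMM factors. Differences are WWv over WT from edgeR's quasi-likelihood test. A gene is called when its p, adjusted by Benjamini and Hochberg's method across the 15181 genes tested, is under 0.05. Kit itself, which checks the labels only in part because neither allele need remove the transcript, lay at 3.19 to 4.92 CPM in WT and 0.929 to 3.01 CPM in WWv, with no overlap. The second WT library (WT 2) stood apart: on the first principal component it lay at 20.2, among the WWv libraries (11.49 to 33.4) and away from the other WT libraries (−51.1 to −29.1). The smooth muscle genes Acta2, Tagln, Myh11, Cnn1, Smtn and Lmod1 summed to 9941 to 13003 CPM in WT and 16748 to 20129 CPM in WWv. Of these 6, only Smtn was not called higher. Markers of leukocytes summed to 18.8 to 39.3 CPM in WT and 19.7 to 24.6 CPM in WWv, with Cd3e at 0 in every library. Of 4 tested, edgeR called 0 (2 at an unadjusted p under 0.05, both lower) and DESeq2 called 1 lower. The 5 Schwann cell markers summed to 10.5 to 17.9 CPM in WT and 6.59 to 26.4 CPM in WWv, and edgeR called 0 (0 at an unadjusted p under 0.05, and 0 by DESeq2 or limma-voom). In bulk RNA, fewer cells of a type and less RNA per cell cannot be told apart.

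WWv cells held more transcript of Itga5 and Itgb1, the chains of the classical fibronectin receptor, of kindlin-2 (Fermt2) and of the actin linkers Vcl, Tns1, Actn1 and Actn4. Of the 35 genes, all of which passed the low-count filter, 16 were called higher in WWv (45.7%, against 12.8% of all tested genes). Only 3 were called lower, Itgb8, Pxn and Tns2 (against 15.4% of all tested genes), and 16 were not called. Calls in either direction took 28.2% of all tested genes. The median log2 fold change was 0.26 over the 35 genes and −0.01 over all tested genes, and 23 of the 35 had an unadjusted p under 0.05. The 18 integrin chains held 6 of the higher calls and 1 of the lower, and the 17 other proteins held 10 and 2. In 10 genes every WWv library lay above every WT library, against 8.03% of all tested genes. These were Itga5, Itgav, Itgb1, Lims1, Fermt2, Vcl, Ptk2, Tns1, Actn1 and Actn4. In none did every WWv library lie below every WT library, against 7.84% of all tested genes. The changes were of moderate size: higher calls ranged from 1.12-fold to 2.00-fold, lower calls from 1.13-fold to 3.62-fold, and 5 called genes reached 1.5-fold.

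**Figure D1:**
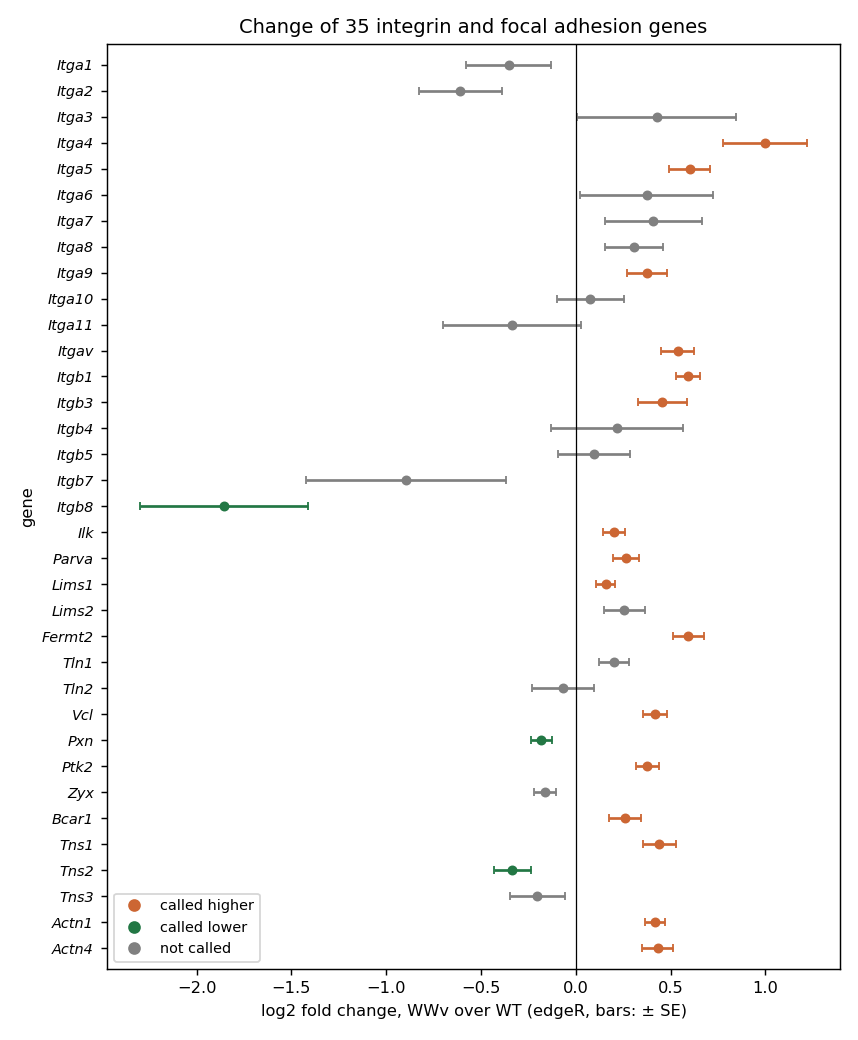
Log2 fold change of each of the 35 genes, WWv over WT (horizontal axis), with bars of ± 1 standard error from edgeR and colour for the call. The 16 genes called higher lie between 0.16 and 1.00, and Itgb8, at −1.86, is the lowest of the 3 called lower.

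These counts moved with WT 2, which was the WT library nearest to WWv in 12 of the 19 called genes. Without it 20 of the 35 were called higher (all tested genes: 22.7%) and 7 lower (23.5%), and all 19 calls were among them. Lower calls numbered 1 when WT 1, WT 3 or WT 4 was dropped, and likewise for WWv 2, WWv 3 and WWv 4. Lower calls over all tested genes also moved, from 2334 to between 1721 and 3620 with 1 library left out. With library totals alone in place of TMM factors, which moved the median of all genes to −0.09, 11 of the 35 were higher (6.48%) and 5 lower (23.7%). Cell cycle genes moved with the groups and with WT 2. Of 15 such genes 9 were called higher (all tested genes: 12.8%) and 0 lower (15.4%). Their mean was 4.83 to 4.98 log2 CPM in the other 4 WT libraries, 5.54 in WT 2 and 5.39 to 5.61 in WWv. With that mean as a covariate, a fit chosen after seeing the data in which WT 2 is the only WT library at WWv levels, 5 of the 35 were higher (3.39%) and 0 lower (2.29%). The 5 were Itgb1, Vcl, Tns1, Actn1 and Lims2. In that edgeR fit 13 were higher and 3 lower at an unadjusted p under 0.05, and the median log2 fold change of the 35 was 0.31. The part of the cell cycle in the other results was not tested. A total of 11 calls held in all 10 fits that left out 1 library each: Itga4, Itga5, Itgav, Itgb1, Itgb8, Fermt2, Vcl, Ptk2, Tns1, Actn1 and Actn4.

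Promoter stretches of Vcl, Fermt2 and Itgb1 are shown as examples, picked after their values were seen, of genes that had no overlap between the groups and hold motifs of factors known to act on smooth muscle and adhesion genes. RefSeq windows of 300 bases (250 before and 50 after the start, GRCm38.p6) were found for 26 of the 35 genes. The CArG box, the site of serum response factor, was in the windows of 2 of the 26, Vcl and Fermt2, and in 1.63% of all 32851 windows. The TEAD site (CATTCC on either strand) was in those of Actn4, Itga10, Itgb1 and Vcl, and in 14.7% of all windows. The AP-1 site (TGACTCA on either strand) was in those of Itga9 and Zyx, and in 5.20%. A match is a run of letters and not a shown binding site, and no factor's binding was measured here. Below, the CArG box and the TEAD site are in capitals.
Vcl, plus strand, chr14:20929158-20929267, 240 to 131 bases before the start: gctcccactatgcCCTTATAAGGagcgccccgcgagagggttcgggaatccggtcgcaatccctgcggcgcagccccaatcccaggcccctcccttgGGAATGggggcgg
Fermt2, minus strand, chr14:45530226-45530285, 220 to 161 bases before the start: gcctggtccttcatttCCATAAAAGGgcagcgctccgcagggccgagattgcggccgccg
Itgb1, plus strand, chr8:128685594-128685653, the last 60 bases before the start: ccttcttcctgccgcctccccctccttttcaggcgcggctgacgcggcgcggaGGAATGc
In Vcl both motifs lie within these 110 bases, and the CArG boxes of Vcl and Fermt2 start 227 and 204 bases before the start.

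Among the receptors, 2 of the 3 alpha chains that bind RGD ligands were called higher (all tested genes: 12.8%). So were 2 of the 6 beta chains, Itgb1 and Itgb3. Itgb1, the beta chain shared by most integrins (ENSMUSG00000025809.15, chromosome 8, 128685654 to 128733200, mm10), stood at 2145, 2392, 2243, 2041 and 2294 CPM in WT 1 to WT 5. In WWv 1 to WWv 5 it stood at 3200, 3423, 3588, 3304 and 3233 CPM. The lowest WWv library was thus well above the highest WT library, which was WT 2. The log2 fold change was 0.59 ± 0.06 (SE, n = 5 per group; edgeR adjusted p = 0.000351), or 1.51-fold, and it stayed between 0.56 and 0.62 when any 1 library was left out.

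Itga5 encodes the alpha chain that pairs with beta1 to form the classical fibronectin receptor (chromosome 15, 103344286 to 103366763). Its level was 708, 885, 775, 625 and 778 CPM in WT 1 to WT 5 and 1121, 1128, 1397, 1036 and 1033 CPM in WWv 1 to WWv 5. No library overlapped with the other group, and WT 2 was again the highest of WT. The rise was 1.52-fold (log2 fold change 0.60 ± 0.11, edgeR adjusted p = 0.00304). Itgav, the alphaV chain that binds vitronectin, fibronectin and latent TGF-beta (chromosome 2, 83724397 to 83806916), went from 463, 594, 515, 459 and 450 CPM in WT to 727, 759, 780, 685 and 649 CPM in WWv. This was a 1.45-fold rise without overlap (0.54 ± 0.09, adjusted p = 0.00185). Of its 10744 exon bases, 634 are shared with Gm13684 on the opposite strand. Itga8, an RGD-binding chain known from smooth muscle, lay at 40.9 to 68.2 CPM in WT and 58.3 to 77.7 CPM in WWv and was not called (0.31 ± 0.15, adjusted p = 0.158).

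The beta partners of alphaV differed in their calls, with Itgb3 higher, Itgb5 not called and Itgb8 lower. The log2 count ratio of Itgb3 over Itgb5 differed by 0.35 between the groups and did not pass (exact permutation p = 0.246, adjusted p = 0.584). Itgb3, known from platelets and from migrating smooth muscle, stood at 13.1, 19.0, 13.2, 16.7 and 15.7 CPM in WT and at 15.6, 22.3, 22.2, 22.5 and 23.9 CPM in WWv. Only WWv 1 lay within the WT range. The rise was 1.37-fold (log2 fold change 0.46 ± 0.13, edgeR adjusted p = 0.0249). The call was lost when WT 1 or WT 3 was left out, and also without WWv 2, WWv 3, WWv 4 or WWv 5 (0.40 to 0.44, adjusted p = 0.0611 to 0.0672) and with library totals alone (0.37, adjusted p = 0.0586). Itgb5, which forms the vitronectin receptor alphaVbeta5, was not called (0.09 ± 0.19, adjusted p = 0.74). It spanned 210 to 409 CPM in WT and 248 to 444 CPM in WWv, with WT 2 and WWv 1 the lowest of their groups.

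Itgb8, whose pairing with alphaV is a known activator of latent TGF-beta (ENSMUSG00000025321.14, chromosome 12, 119158022 to 119238802), had the largest change of the 35 genes and fell. It was at 12.4, 2.39, 10.2, 14.1 and 11.8 CPM in WT and at 1.21, 2.67, 2.19, 3.27 and 4.64 CPM in WWv. WT 2 lay inside the WWv range, and the other 4 WT libraries lay above all WWv libraries. The fitted difference was 3.62-fold (log2 fold change −1.86 ± 0.44, edgeR adjusted p = 0.0115). Leaving out any 1 library gave −2.12 to −1.66, and the highest adjusted p was 0.033. With the cell cycle mean as covariate the fall was −0.20 (adjusted p = 0.886). The sum of fibroblast markers moved the same way. Their summed level over 8 genes was 456 to 698 CPM in WT, lowest in WT 2, and 282 to 433 CPM in WWv. Of the 8, edgeR called 5 lower (all tested genes: 15.4%), namely Pdgfra, Lum, Dcn, Dpep1 and Dpt. DESeq2 called 5 lower and limma-voom 3. The 5 ranged from −4.02 for Lum (edgeR adjusted p = 0.00209) to −0.64 for Pdgfra (adjusted p = 0.00631). Dcn lost its call without WWv 2. Higher calls by edgeR numbered 0 (0 higher at an unadjusted p under 0.05, and 0 by DESeq2 or limma-voom). Cd34 went up without a call (log2 fold change 0.62, edgeR adjusted p = 0.482), and was called higher without WT 2. It stood at 69.0 CPM in WT 2, 6.18 to 13.4 CPM in the other WT libraries and 19.6 to 49.6 CPM in WWv. The part of fibroblast markers in the fall of Itgb8 was not tested.

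The alpha4 and alpha9 chains, which both bind the adhesion molecule VCAM-1, rose. Itga4 (chromosome 2, 79255426 to 79333123) stood at 10.4, 14.5, 12.8, 15.3 and 10.8 CPM in WT and at 14.8, 30.5, 20.4, 24.2 and 37.5 CPM in WWv. Apart from WWv 1, every WWv library lay above the WT range. Its 2.00-fold change was the largest rise of the 35 genes (log2 fold change 1.00 ± 0.22, edgeR adjusted p = 0.00856). Of its 13978 exon bases, 1124 are shared with Cerkl on the opposite strand. Itga9, whose product also binds tenascin and osteopontin, lay at 40.6 to 49.5 CPM in WT 1 to WT 4 and at 53.0 to 71.8 CPM in WWv, and WT 5 alone reached into the WWv range (0.37 ± 0.10, adjusted p = 0.022). Its call was lost without WT 1 or WWv 3 (0.33 to 0.35, adjusted p = 0.0539 to 0.0552). Itgb7, a beta chain of lymphocytes that pairs with alpha4, held 2 to 28 counts per library and was not called (−0.89 ± 0.53, adjusted p = 0.224), which is near the limit of what this depth can show.

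None of the 4 collagen-binding alpha chains was called by edgeR or limma-voom, and 1 had an unadjusted p under 0.05 in each. Itga2, which binds collagen I, was the closest, at 68.8, 33.9, 58.5, 69.0 and 50.3 CPM in WT and 23.2, 38.7, 37.4, 34.0 and 50.4 CPM in WWv (log2 fold change −0.61 ± 0.22, edgeR adjusted p = 0.059). DESeq2 called it lower (−0.61, adjusted p = 0.0221), and so did edgeR with library totals alone (−0.69, adjusted p = 0.0306) and the fits without WT 2 or WWv 5 (−0.76 to −0.74, adjusted p = 0.00627 to 0.0288). Itga1 ranged over 53.4 to 145 CPM in WT and 71.6 to 101 CPM in WWv (−0.35 ± 0.22, adjusted p = 0.258), and was called lower without WT 2 (−0.52, adjusted p = 0.0118). Itga11, the collagen receptor chain of mesenchymal cells, varied more within WT than between the groups, from 81.0 CPM in WT 2 to 334 CPM in WT 5, against 85.8 to 224 CPM in WWv (−0.34 ± 0.36, adjusted p = 0.509). Itga10, known from cartilage, stayed at 3.15 to 4.78 CPM in WT and 3.37 to 5.73 CPM in WWv (0.08 ± 0.18, adjusted p = 0.777), and was at −0.0038 with library totals alone. Of its 5186 exon bases, 1739 are shared with Gm42957 on the same strand, so its reads are uncertain.

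Among the laminin-binding chains, Itga3 and Itga6 turned on WT 2. None of the 3 alpha chains was called by edgeR, DESeq2 or limma-voom, and 0 had an unadjusted p under 0.05. Itga3, the partner of beta1 in laminin receptors, stood at 26.8, 86.1, 26.4, 16.99 and 19.9 CPM in WT and at 58.3, 36.2, 42.7, 66.9 and 32.7 CPM in WWv. WT 2 was above every WWv library, and the other 4 WT libraries were below all of them. Over all libraries it was not called (log2 fold change 0.43 ± 0.42, edgeR adjusted p = 0.467), and without WT 2 it was called higher (1.07, adjusted p = 0.00267). Itga6 showed the same order, at 22.7 CPM in WT 2, 5.53 to 8.48 CPM in the other WT libraries and 10.6 to 17.9 CPM in WWv (0.37 ± 0.35, adjusted p = 0.445; without WT 2, 0.89, adjusted p = 0.00193). Itgb4, the beta chain that joins alpha6 in the hemidesmosomes of epithelia, lay at 11.47 CPM in WT 2 against 2.53 to 5.22 CPM in the other WT libraries and 5.02 to 7.35 CPM in WWv (0.22 ± 0.35, adjusted p = 0.668; without WT 2, 0.69, adjusted p = 0.0198). Itga7, the laminin receptor chain of muscle, differed in that WT 2 was the lowest library of WT, at 4.20 CPM (WT up to 6.59 CPM, WWv 3.26 to 9.81 CPM). It was not called (0.41 ± 0.26, adjusted p = 0.253), and was called without WWv 1 (0.59, adjusted p = 0.0357).

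The summed level of endothelial markers was also highest in WT 2. The 7 markers summed to 329 CPM in WT 2 and to 56.5 CPM in the lowest WT library (WT median 81.3 CPM). In WWv they summed to 91.2 to 210 CPM (median 146 CPM). Cdh5, the endothelial cadherin, was at 107 CPM in WT 2 and at 19.8 to 30.9 CPM in the other WT libraries, and at 29.9 to 76.3 CPM in WWv. WT 2 was the highest of all libraries for 6 of the 7, all but Kdr (5.61 CPM in WT 2, 5.63 CPM in WT 1). The differences went both ways, from −0.63 for Vwf, −0.41 for Kdr and −0.32 for Tek to 0.37 for Cdh5 on the log2 scale. With all libraries none of the 7 was called by edgeR, DESeq2 or limma-voom, and 0 had an unadjusted p under 0.05. Without WT 2, edgeR called Pecam1, Cdh5, Tie1 and Emcn higher (all tested genes: 22.7%), and without WT 4 it called Kdr lower. Markers of the mesothelium summed to 9.87 to 25.9 CPM in WT and to 11.4 to 19.0 CPM in WWv. The sum was highest in WT 2 through Krt19 alone (25.2 CPM there). Msln, Upk3b, Lrrn4 and Wt1 were not highest in WT 2, and Upk3b was lowest there (0.302 CPM). Of the 4 tested, 0 were called by edgeR, DESeq2 or limma-voom, with 0 at an unadjusted p under 0.05. The part of such cells in the integrin values was not tested.

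**Figure D2:**
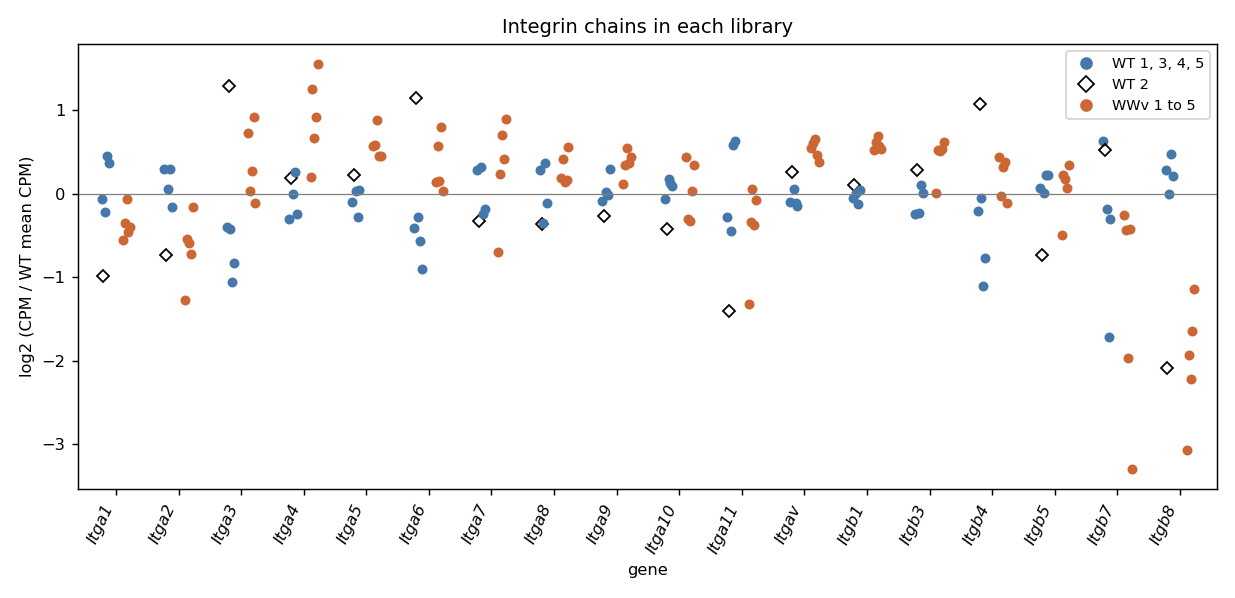
Level of each of the 18 integrin chains in every library, as log2 of its CPM over the WT mean (vertical axis), with WT 2 as an open diamond. For Itga5, Itgav and Itgb1 all 5 WWv libraries lie above all 5 WT libraries, while WT 2 lies far from the other WT libraries for Itga3, Itga6, Itgb4 and Itgb8.

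Levels can be compared between genes only per length, here as CPM per kilobase of merged exons (CPM/kb). Itgb1 was the most abundant of the 35 by that measure in both groups, at 545 ± 33.2 CPM/kb in WT and 821 ± 38.8 CPM/kb in WWv (SD, n = 5 each). Among alpha chains Itga5 led with 153 ± 19.5 CPM/kb in WT and 232 ± 30.2 CPM/kb in WWv. Itgav followed at 46.2 ± 5.63 and 67.0 ± 5.00 CPM/kb, and Itga11 was next at 41.8 ± 21.4 and 33.0 ± 10.3 CPM/kb. In WT the ranges of Itgav and Itga11 overlapped, so that their order is not fixed. Itga2, Itga8, Itga9, Itga3 and Itga1 came next, at 5.66 to 7.87 CPM/kb in WT, with spreads that do not separate neighbours. Itga6, Itga4, Itga10 and Itga7 were at 0.65 to 1.14 CPM/kb in WT. Among beta chains Itgb5 was second at 98.4 ± 23.0 and 105 ± 21.2 CPM/kb, far above Itgb3 (2.63 ± 0.419 and 3.61 ± 0.55 CPM/kb).

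As a share of the summed alpha chain level per length, Itga5 took 46.6 to 62.1% in WT, highest in WT 2, and 59.5 to 65.3% in WWv. The share of Itgav was 13.97 to 19.2% and 16.5 to 19.5%. Itga11 took 5.46 to 23.2% in WT and 4.81 to 11.3% in WWv, and Itga2 1.65 to 3.73% and 0.936 to 2.01%. Itgb1 took 80.7 to 90.1% of the summed beta chain level in WT and 85.9 to 91.4% in WWv. The sum of the alpha chains was 259 to 300 CPM/kb in WT and 348 to 439 CPM/kb in WWv, and that of the beta chains 620 to 681 and 858 to 996 CPM/kb. Neither sum overlapped between the groups, and both are led by the chains that rose. These shares are a description and were not tested.

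**Figure D3:**
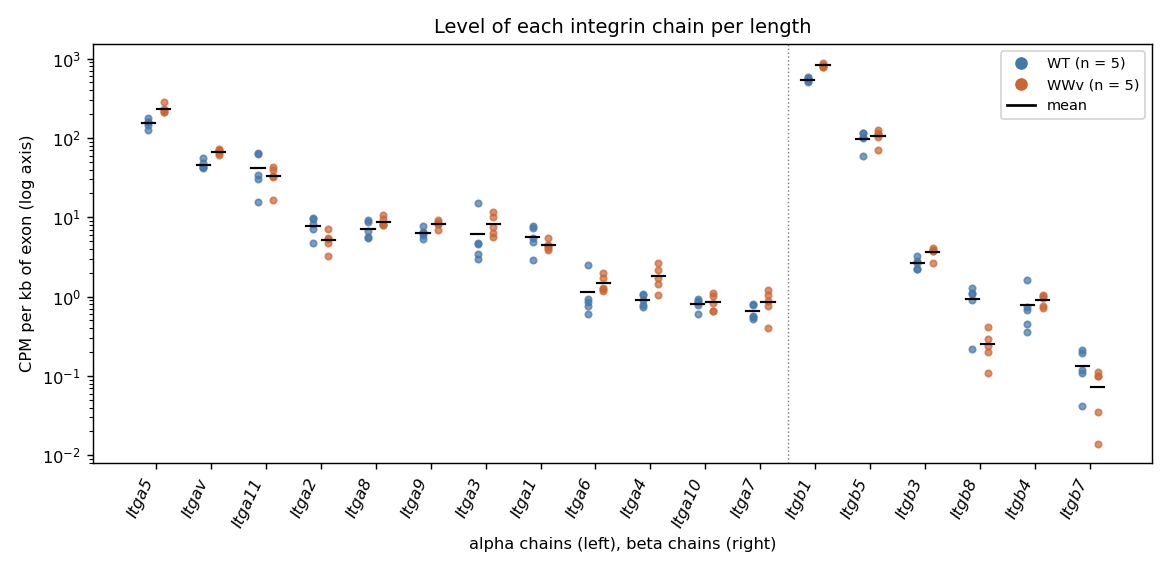
CPM per kilobase of merged exons for each integrin chain (vertical log axis), with 1 point per library and a line at the mean of each group. Alpha chains (left) and beta chains (right) are ordered by their WT mean, and Itga5 and Itgb1 lead in both groups.

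Inside the cell, only Fermt2 of the proteins that switch integrins on was called higher, and its difference from the talins was not tested. Fermt2 encodes kindlin-2, which binds the beta tail beside talin (chromosome 14, 45458795 to 45530118, promoter shown above). It stood at 231, 283, 246, 221 and 265 CPM in WT and at 350, 370, 437, 367 and 356 CPM in WWv. The groups did not overlap, and the rise was 1.51-fold (log2 fold change 0.59 ± 0.08, edgeR adjusted p = 0.000998). Tln1, talin-1, was at 1016, 1308, 1072, 979 and 1006 CPM in WT and at 1288, 1271, 1235, 1198 and 1187 CPM in WWv. WT 2 was the highest of all 10 libraries and the other WT libraries were below all of WWv. Tln1 was not called (0.20 ± 0.08, adjusted p = 0.0833), and was called without WT 2 (0.28, adjusted p = 0.00104). Tln2, the second talin, ranged over 94.4 to 178 CPM in WT and 107 to 156 CPM in WWv (−0.07 ± 0.16, adjusted p = 0.777).

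Of the 4 measured genes of the ILK, PINCH and parvin complex, which binds the beta tail and actin, 3 were called higher (all tested genes: 12.8%). The rises were small, and all 4 genes were higher at an unadjusted edgeR p under 0.05. Parva, alpha-parvin, had the largest at 1.203-fold, from 438, 528, 439, 417 and 462 CPM in WT to 574, 568, 547, 557 and 502 CPM in WWv (log2 fold change 0.27 ± 0.07, edgeR adjusted p = 0.0157). Only WWv 5 lay within the WT range, below WT 2, and the call was lost without WWv 4 (0.25, adjusted p = 0.0519) and with library totals alone (0.18, adjusted p = 0.0974). Lims1, the adaptor PINCH-1, rose 1.12-fold with no overlap (139 to 150 CPM in WT, 153 to 177 CPM in WWv; 0.16 ± 0.05, adjusted p = 0.0363). Its call was lost with the replicate number as a block (0.16, adjusted p = 0.0841), with library totals alone (0.07, adjusted p = 0.261), under both other low-count filters (0.13 to 0.16, adjusted p = 0.0542 to 0.0847) and when any of WT 3, WT 4, WT 5 or of WWv 1, WWv 2, WWv 3 was left out (0.12 to 0.17, adjusted p = 0.0578 to 0.0877). Ilk, the pseudokinase at the centre of the complex, was at 256 to 311 CPM in WT, highest in WT 2, and 302.5 to 327 CPM in WWv (0.20 ± 0.06, adjusted p = 0.0249). That call was lost on leaving out any library but WT 2 (0.18 to 0.21, adjusted p = 0.0532 to 0.0707), with library totals alone (0.12, adjusted p = 0.206) and with no low-count filter (0.20, adjusted p = 0.0602). Of the 2744 exon bases of Ilk, 2461 are shared with Rrp8 and Taf10 on the opposite strand. The strand setting of the counting is not given in the sources used here, so its reads are uncertain. Lims2, PINCH-2, was not called (59.1 to 88.0 CPM in WT, 76.7 to 96.4 CPM in WWv; 0.26 ± 0.11, adjusted p = 0.0992), and was called without WT 5 (0.35, adjusted p = 0.0185) and with the cell cycle mean as covariate (0.57, adjusted p = 0.0398).

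The signalling proteins went both ways. Ptk2, which encodes the focal adhesion kinase FAK (chromosome 15, 73205102 to 73423280), stood at 112, 117, 109, 99.8 and 106 CPM in WT and at 126, 144, 151, 136 and 148 CPM in WWv. The groups did not overlap, and the rise was 1.30-fold (log2 fold change 0.38 ± 0.06, edgeR adjusted p = 0.00189). Bcar1, the FAK substrate p130Cas, was at 133 to 184 CPM in WT, highest in WT 2, and at 165 to 199 CPM in WWv (0.26 ± 0.08, adjusted p = 0.0415). Its call was kept in 2 of the 10 fits with 1 library left out, those without WT 2 or WWv 5, and lost in the other 8 (0.21 to 0.26, adjusted p = 0.0775 to 0.112). It was also lost with library totals alone (0.17, adjusted p = 0.183) and under both other low-count filters (0.23 to 0.26, adjusted p = 0.0584 to 0.0649). Pxn, the adaptor paxillin, was lower at 99.0, 98.2, 94.5, 95.1 and 82.6 CPM in WT against 84.1, 84.1, 77.1, 84.1 and 84.5 CPM in WWv. The WT range reached into that of WWv through WT 5 alone. The fall was 1.13-fold (−0.18 ± 0.05, adjusted p = 0.0313). It was not called with the replicate number as a block (−0.18, adjusted p = 0.0637), with no low-count filter (−0.18, adjusted p = 0.0805), nor after leaving out WT 1, WT 3 or WT 4, or any of WWv 2, WWv 3, WWv 4 (−0.19 to −0.16, adjusted p = 0.0591 to 0.0844).

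Of the 7 proteins that link adhesions to actin filaments, 4 were called higher, each without overlap between the groups. Of all tested genes 12.8% were called higher, and in 8.03% every WWv library lay above every WT library. Vcl, vinculin, which strengthens the talin and actin bond under force (chromosome 14, 20929398 to 21033676, promoter shown above), stood at 1454, 1209, 1238, 1252 and 1265 CPM in WT and at 1718, 1731, 1838, 1604 and 1685 CPM in WWv. WT 1 was the highest of WT and still below all of WWv. The rise was 1.34-fold (log2 fold change 0.42 ± 0.06, edgeR adjusted p = 0.0016). Of its 8191 exon bases, 2090 are shared with Ap3m1 on the opposite strand. The crosslinkers alpha-actinin-1 and alpha-actinin-4 rose by like amounts. Actn1 went from 2141, 2106, 2153, 2085 and 2275 CPM to 2896, 2932, 2983, 2751 and 2811 CPM (0.42 ± 0.05, adjusted p = 0.000676). Actn4 went from 1411, 1760, 1454, 1291 and 1426 CPM to 2055, 1994, 2089, 1936 and 1827 CPM (0.43 ± 0.08, adjusted p = 0.00419), with WT 2 the WT library nearest to WWv. Some of their exon bases lie over other genes on the opposite strand, 451 of 5533 in Actn1 and 316 of 6127 in Actn4.

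The tensins, which join the beta tail to actin, split. Tns1, tensin-1 (chromosome 1, 73910231 to 74124449), stood at 1936, 1604, 1983, 2035 and 2230 CPM in WT and at 2464, 2781, 2803, 2489 and 2733 CPM in WWv. This 1.36-fold rise had no overlap (log2 fold change 0.44 ± 0.09, edgeR adjusted p = 0.00495). Tns2 was at 162, 113, 154, 167 and 151 CPM in WT and at 126, 115, 107, 115 and 128 CPM in WWv, a 1.26-fold fall (−0.34 ± 0.10, adjusted p = 0.0268). WT 2 lay inside the WWv range. The call of Tns2 was lost on leaving out any library but WT 2, WWv 1 or WWv 5 (−0.33 to −0.29, adjusted p = 0.0521 to 0.0659), and with the cell cycle mean as covariate its value was 0.02 (adjusted p = 0.927). Tns3 ranged over 284 to 507 CPM in WT, lowest in WT 2, and 329 to 429 CPM in WWv and was not called (−0.20 ± 0.15, adjusted p = 0.313), though it was called lower without WT 2 (−0.32, adjusted p = 0.0115). Zyx, zyxin, which marks adhesions under tension, was at 1185 to 1349 CPM in WT and 1054 to 1198 CPM in WWv. It was not called by edgeR (−0.16 ± 0.06, adjusted p = 0.0623). It was called lower by DESeq2 (−0.16, adjusted p = 0.0176), with library totals alone (−0.25, adjusted p = 0.0134), with the filter of 1 CPM in 5 libraries (−0.19, adjusted p = 0.0321) and without WT 2 or WWv 1 (−0.19 to −0.17, adjusted p = 0.0383 to 0.0454).

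**Figure D4:**
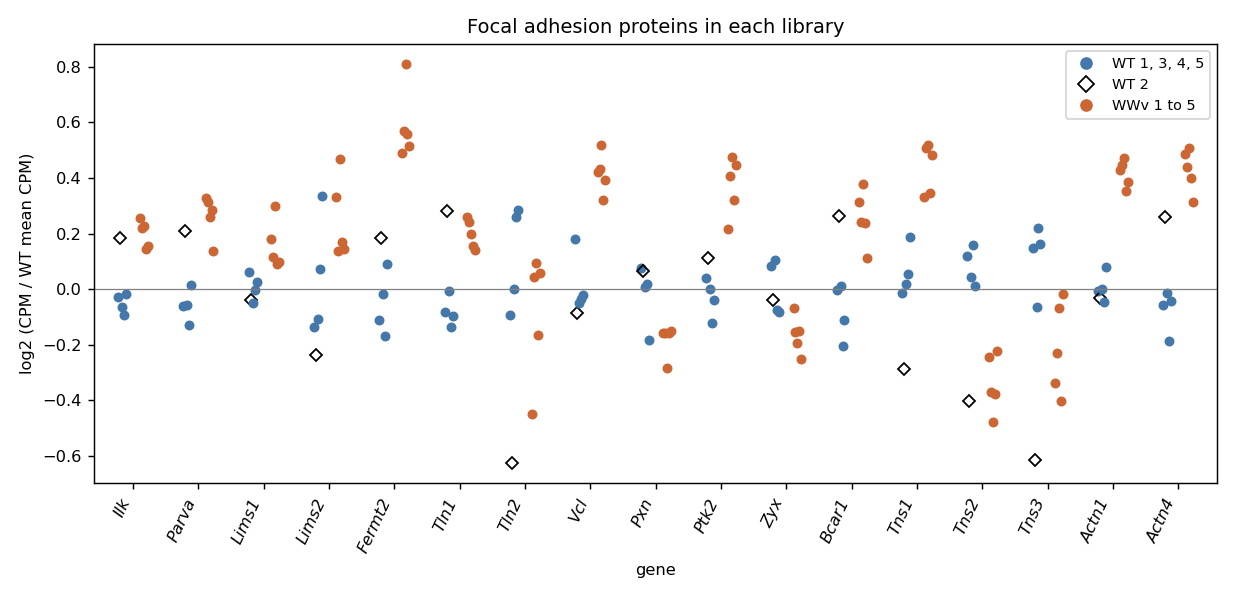
Level of each of the 17 focal adhesion genes in every library, as log2 of its CPM over the WT mean (vertical axis), with WT 2 as an open diamond. All WWv libraries lie above all WT libraries for Lims1, Fermt2, Vcl, Ptk2, Tns1, Actn1 and Actn4, and WT 2 lies at WWv levels for Tln1 and Tns2.

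Whether related genes changed by unequal amounts was asked with their count ratio in each library, which does not depend on scaling between libraries. Of 8 pairs, tested with a two-sided exact permutation test (smallest possible p = 0.00794) and adjusted over the 8, none passed. A single pair at that smallest p gets an adjusted p of 0.0635, so with all libraries no pair could pass alone. The nearest was Tns1 over Tns3. Its log2 ratio was 2.19 ± 0.204 in WT (lowest 2.01, highest in WT 2) and 2.82 ± 0.105 in WWv (2.67 to 2.92; SD, n = 5 each). The ratio was 1.54-fold higher with no overlap (difference 0.63 on the log2 scale, 5 of 5 WWv ratios above all WT ratios; exact p = 0.00794, adjusted p = 0.0635). Without WT 2 the difference was 0.70 and the adjusted p 0.0423 (exact permutation, n = 4 and 5).

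For Actn1 over Actn4 the log2 ratio was 0.56 ± 0.175 in WT and 0.54 ± 0.0518 in WWv, a difference of −0.02 (exact permutation p = 0.873, adjusted p = 0.873, n = 5 each). Leaving out 1 library gave −0.09 to 0.01. Tln1 over Tln2 differed by 0.26 (exact p = 0.365, adjusted p = 0.584), and by 0.48 without WT 2 (adjusted p = 0.0423). Itgb3 over Itgb5 differed by 0.35 (exact p = 0.246, adjusted p = 0.584), and by 0.60 without WT 2 (adjusted p = 0.0423). In both, WT 2 was above every WWv library and the other WT libraries were below all of them. The differences were 0.27 for Itga5 over Itga8, 0.20 for Itga6 over Itga7, −0.05 for Itga1 over Itga11 and −0.11 for Lims1 over Lims2 (exact permutation adjusted p = 0.584 to 0.873).

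**Figure D5:**
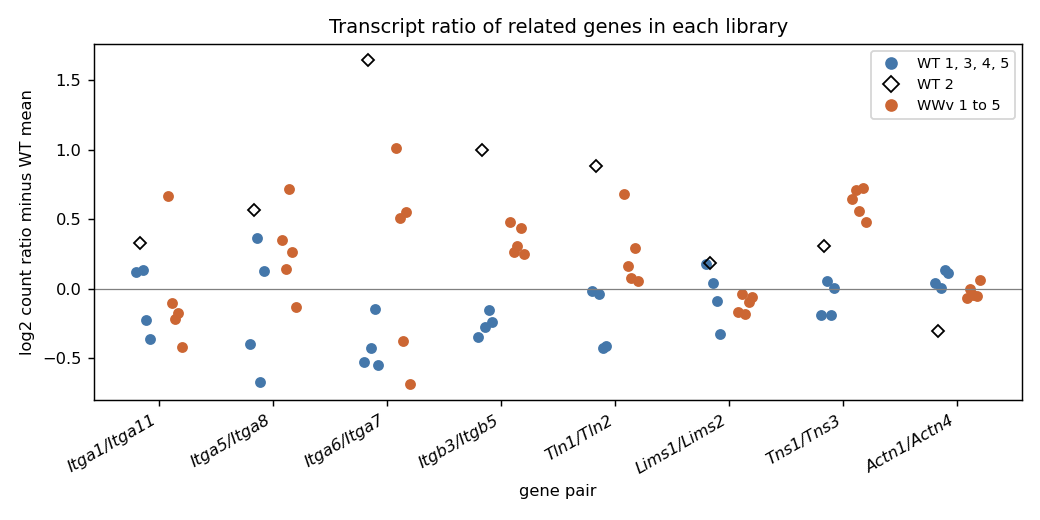
Log2 ratio of the counts of 2 related genes in each library, less the WT mean of that ratio (vertical axis), for 8 pairs, with WT 2 as an open diamond. For Tns1 over Tns3 all WWv libraries lie above all WT libraries, and for Itga6 over Itga7, Itgb3 over Itgb5 and Tln1 over Tln2 WT 2 is the highest library.

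Other genes of the same machinery were counted from lists chosen by function. Of all tested genes 12.8% were called higher and 15.4% lower. Of 38 tested adaptors and kinases of focal adhesions 14 were called higher (36.8%) and 1 lower (median log2 fold change 0.16). Among those that rose were Sorbs2, which encodes a vinculin-binding adaptor (0.76 ± 0.20, edgeR adjusted p = 0.0166), and Rapgef1, an exchange factor for the GTPase Rap1 (0.34 ± 0.07, adjusted p = 0.0084). Sorbs2 stood at 64.8 ± 11.8 CPM in WT and 109 ± 28.5 CPM in WWv (n = 5 each), with WWv 1 inside the WT range. The 1 lower gene was Tns4, the fourth tensin, from 2.86 ± 1.05 to 1.42 ± 0.477 CPM (−0.998 ± 0.30, adjusted p = 0.0289). Its call was lost with the replicate number as a block and on leaving out WT 1, WT 3 or WT 5, or WWv 1, WWv 3 or WWv 4, and then no gene of the list was called lower. Leaving out WT 2 gave 3 lower (all tested genes: 23.5%). With library totals alone 5 were higher and 3 lower (all tested genes: 6.48% and 23.7%).

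Of 24 further actin linkers 13 were called higher (54.2%) and 3 lower (median 0.31), against 12.8% and 15.4% of all tested genes. Synpo2, an actin-bundling protein, had the largest rise (18.0 ± 3.48 to 38.8 ± 7.48 CPM, log2 fold change 1.10 ± 0.15, edgeR adjusted p = 0.001), followed by the LIM protein gene Pdlim1 (187 ± 34.7 to 353 ± 40.3 CPM, 0.91 ± 0.12, adjusted p = 0.000811) and the filament-elongating Enah (66.3 ± 13.2 to 103 ± 10.1 CPM, 0.64 ± 0.12, adjusted p = 0.00434). None of these 3 overlapped between the groups. Actn2, the alpha-actinin of striated muscle, was called lower from 0.391 ± 0.196 to 0.119 ± 0.0861 CPM (−1.70 ± 0.52, adjusted p = 0.0324), at 1 to 35 counts per library. Among the fits with 1 library left out it kept that call only without WT 2, WWv 2 or WWv 5. Also lower were Trip6 (62.8 ± 3.55 to 49.8 ± 1.37 CPM, −0.33 ± 0.05, adjusted p = 0.00113, no overlap) and Actn3 (4.21 ± 0.881 to 2.81 ± 0.257 CPM, −0.58 ± 0.15, adjusted p = 0.015). Both kept their calls whichever library was left out.

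Among 30 tested matrix ligands of integrins 8 were called higher (26.7%) and 2 lower (median 0.14), against 12.8% and 15.4% of all tested genes. Fn1, the ligand of the Itga5 and Itgb1 receptor and outside the naming rule for this list, was not called (14109 to 23275 CPM in WT, lowest in WT 2, and 19303 to 27988 CPM in WWv; log2 fold change 0.29, edgeR adjusted p = 0.16). The chains of collagen VI went apart: Col6a3 rose from 116 ± 29.5 to 320 ± 81.7 CPM (1.46 ± 0.21, adjusted p = 0.00127), while Col6a1 fell from 511 ± 118 to 330 ± 50.7 CPM (−0.63 ± 0.17, adjusted p = 0.0181) and Col6a2 from 324 ± 71.5 to 223 ± 21.8 CPM (−0.54 ± 0.15, adjusted p = 0.0195). Tgfb1, whose latent form binds alphaV integrins, rose from 53.7 ± 6.03 to 77.2 ± 8.66 CPM (0.53 ± 0.09, adjusted p = 0.00294). Higher ligands numbered 5 when WT 3, WT 5, WWv 3 or WWv 4 was dropped, and 4 for WWv 2 or WWv 5. Lower ones numbered 1 without WT 1, when Col6a2 was not called, and 6 without WT 2 (all tested genes: 23.5%). Calls over all tested genes also moved with 1 library left out. They went from 1940 to between 1286 and 3507 higher, and from 2334 to between 1721 and 3620 lower. With library totals alone 4 ligands were higher and 4 lower (all tested genes: 6.48% and 23.7%). Of the 10 further integrin chain genes and relatives 5 were tested, and Itga2b, the platelet chain alphaIIb, was the 1 called by edgeR, lower (3.64 ± 1.05 to 2.22 ± 0.331 CPM, −0.71 ± 0.19, adjusted p = 0.0201). It was not called without WWv 2 or WWv 3. DESeq2 and limma-voom each called 2 of the 5 lower.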

How the data were processed

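Messenger RNA was sequenced in 5 libraries of each genotype (kit per the labels: Nugen Universal Plus). The authors deposited raw counts per gene, whole numbers for 54446 versioned Ensembl IDs. Per the submitters' processing notes, bcl2fastq 2.17, Trim Galore 0.4.3 and STAR 2.5.2a were used with mm10. The counting program, its strand setting and the annotation release are not given in the sources used here. Of the 35 genes, 12 share exon bases with a gene on the opposite strand and 2 with one on the same strand.

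Names, positions and exon lengths came from GENCODE M21 (GRCm38), which matched 54409 IDs with the version dropped. Groups were taken from the titles. Counts were fitted across all genes with edgeR 4.0.16 (R 4.3.3), by quasi-likelihood with the group as the only term, TMM factors and filterByExpr at a minimum count of 10. Standard errors are the absolute log2 fold change over the square root of F. Log2 CPM used a prior count of 2. Count ratios used 0.5 added counts and scipy 1.17.1. The fit was tested on simulated data.

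The rule for named genes was all 35, Kit, and up to 4 called genes of each further list with the largest change; 1 of these is not reported here. The genes, lists and tests were chosen with earlier results of these data known, and the promoter motifs after the values were seen. Fn1, Smtn, Cdh5, Kdr, Vwf, Lmod1, Cd3e, Parvb, Itgb2, Itgae, Itgal, Itgam, Itgax and Itgad were also named after their values were seen. So were Pecam1, Tie1, Emcn, Cd34, Pdgfra, Krt19, Msln, Upk3b, Lrrn4, Trip6 and Actn3. Alternatives were RLE factors, library totals alone, no low-count filter, 1 CPM in 5 libraries, DESeq2 1.42.0, limma-voom 3.58.1, a block for the replicate number, and fits with 1 library left out; the cell cycle covariate was added after seeing the data.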

Additional observations from a re-analysis of the deposited data

Results flagged for a closer look

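In each group of 5 libraries, a library was marked when its gap to the nearest other library was over 0.71 of the group's range (Dixon's 95% critical value). Chance marks about 1 in 20 groups. Of 88 groups examined for the 35 genes, Kit and the 8 ratios, 14 libraries were marked, 8 of them WT 2.

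WT 2 stood above the other WT libraries for Itga3 (86.1 CPM against 16.99 to 26.8), Itga6 (22.7 against 5.53 to 8.48), Ilk (311 against 256 to 270.1) and Tln1 (1308 against 979 to 1072). It stood below them for Itgb5 (210 CPM against 353 to 409). In the log2 count ratios WT 2 was high for Itga6 over Itga7 (2.43 against 0.25 to 0.65) and Itgb3 over Itgb5 (−3.47 against −4.81 to −4.62), and low for Actn1 over Actn4 (0.26 against 0.57 to 0.69).

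WWv 3 stood above the other WWv libraries for Itga5 (1397 CPM against 1033 to 1128) and Fermt2 (437 against 350 to 370), and below them for Pxn (77.1 against 84.1 to 84.5). WWv 1 was low for Itgb3 (15.6 CPM against 22.2 to 23.9). Among WT libraries WT 1 was high for Vcl (1454 CPM against 1209 to 1265) and WT 5 was low for Pxn (82.6 CPM against 94.5 to 99.0). Without WWv 3 both Itga5 and Fermt2 were still called higher.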

How the results depend on the processing

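Over the 35 genes, RLE factors and limma-voom changed no call. Lower calls numbered 5 with DESeq2 and with library totals alone. With the cell cycle covariate, added after seeing the data, 5 were higher and 0 lower, and of all genes 515 were higher and 348 lower. The same fit gave 3 higher adaptors and kinases, 6 higher and 0 lower actin linkers, and 2 higher and 1 lower matrix ligands. It turned the signs of Itga1 (0.59), Itga3 (−0.59), Itga6 (−0.74), Itga11 (0.99), Itgb4 (−0.70), Tln1 (−0.037), Tln2 (0.46), Tns2 (0.020) and Tns3 (0.34), none of them called in that fit. With library totals alone, all genes gave 983 higher and 3599 lower, adaptors and kinases 5 and 3, and matrix ligands 4 and 4, and Itga10 was at −0.0038. Matrix ligands called lower numbered 4 with DESeq2. The cause of these shifts was not tested.

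Same-numbered libraries did not deviate together (correlations −0.09 to 0.31; 1 of 5 WT libraries correlated best with its own number), so the numbers were not taken as pairs. With the replicate number as a block 15 of the 35 were higher and 2 lower, Lims1 and Pxn being lost, and lower adaptors and kinases numbered 0. All genes gave 1693 higher and 1943 lower with the block. For the ratios, sign flips of 5 pairs cannot go below an exact p of 0.0625, and the difference of means (0.63 for Tns1 over Tns3) is the same by construction.

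With 1 library left out, the 35 genes gave 11 to 20 higher and 1 to 7 lower calls, and all genes 1286 to 3507 higher and 1721 to 3620 lower. Ranges were 10 to 19 and 0 to 3 for adaptors and kinases, 9 to 16 and 2 to 3 for actin linkers, and 4 to 11 and 1 to 6 for matrix ligands. Signs turned for genes near no change: Itga10 (−0.0091 without WT 2, −0.032 without WWv 1, −0.0063 without WWv 5, and up to 0.16 in the other fits), Itgb5 (−0.040 without WT 2, up to 0.21) and Tln2 (0.0029 without WT 4, 0.011 without WT 5, 0.013 without WWv 1, down to −0.19). Ratio differences ranged over −0.23 to 0.044 (Itga1 over Itga11, turned at 0.034 and 0.044 without WT 2 and WWv 5), −0.095 to 0.014 (Actn1 over Actn4, turned at 0.014 and 0.0092 without WT 4 and WT 5), 0.58 to 0.70 (Tns1 over Tns3), 0.15 to 0.48 (Tln1 over Tln2) and 0.26 to 0.60 (Itgb3 over Itgb5). Genes at few counts, such as Itgb7, are limited by depth.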

Other observations

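Integrin chains of leukocytes, part of the further integrin chains counted above, were at low levels. The highest level in any library was 0.202 CPM for Itgae, 0.165 CPM for Itgal, 0.136 CPM for Itgam and 0.241 CPM for Itgax, and Itgad did not exceed 0.057 CPM. None of the 5 passed the low-count filter. Itgb2, the beta2 chain of leukocyte integrins, was tested at 0.209 to 0.585 CPM in WT and 0.0225 to 0.289 CPM in WWv and was not called (log2 fold change −1.33, edgeR adjusted p = 0.055). Parvb, the second parvin, was highest in WT 2, like Itga3, at 44.6 CPM in WT 2 against 6.80 to 11.8 CPM in the other WT libraries and 11.2 to 25.0 CPM in WWv (0.33, adjusted p = 0.635). It was not called with all libraries, and was called higher without WT 2.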
